A study of Mus musculus with 6 samples.

Results

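Plexins are the cell-surface receptors of semaphorins, and the data described here are the RNA levels of 10 genes of these families in sorted mouse cardiac macrophages: the semaphorins Sema4a, Sema4d, Sema3c and Sema3d and the plexins Plxnb1, Plxnb2, Plxnb3, Plxna1, Plxnc1 and Plxnd1. The 10 genes were listed by name, out of 35865 genes with values, with the comparison of the genotypes already known, because Plxnb3 was among the largest rises in Tet2 KO. Their differences between genotypes are therefore a description and test nothing. All 10 passed the filter on low counts, which kept 16386 genes. The other 21 plexin, semaphorin and neuropilin genes and a list of 53 signalling genes serve for comparison.

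The study concerns clonal haematopoiesis driven by loss of Tet2 and heart function with age, in hosts that its title calls nonconditioned. It holds 6 RNA-seq libraries, 3 labelled Tet2 KO and 3 labelled Tet2 WT, all from mice of the C57BL/6J strain. Each library is total RNA of macrophages sorted from digested heart tissue, and the cells of both groups are labelled as derived from donor haematopoietic progenitors. A host that was not conditioned keeps its own blood-forming cells, and the labels do not give the sort gate, the age of the mice, the deleted exons of Tet2 or whether libraries came from separate animals. Any p-value below thus rests on how these libraries vary, which may be technical variation only. Tet2 KO and Tet2 WT are used as the labels give them.

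Semaphorins are secreted or membrane-bound guidance proteins first known from growing axons. Plexins span the membrane once and carry an intracellular domain that switches off small GTPases of the Ras and Rap families, which loosens integrin adhesion and reshapes the actin skeleton. Secreted class 3 semaphorins mostly need a neuropilin beside the plexin, whereas membrane-bound class 4 semaphorins bind plexins directly and are prominent in immune cells. B-class plexins also activate RhoA through guanine nucleotide exchange factors bound to their C-terminus.

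Tet2 oxidises methylated cytosine, which in mammals lies mostly in CG dinucleotides. The 250 bases before the RefSeq start site (assembly GRCm38.p6) are therefore shown for Plxnb3, Sema4a and Sema3d, with every CG in capitals. The plus-strand window of Plxnb3 is chrX:73756853-73757102, the minus-strand window of Sema4a is chr3:88461183-88461432 and the plus-strand window of Sema3d is chr5:12382916-12383165.
Plxnb3: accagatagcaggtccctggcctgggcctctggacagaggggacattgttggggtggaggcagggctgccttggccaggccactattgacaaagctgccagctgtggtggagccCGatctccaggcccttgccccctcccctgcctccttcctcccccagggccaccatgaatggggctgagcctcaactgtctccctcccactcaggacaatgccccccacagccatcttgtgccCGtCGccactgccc
Sema4a: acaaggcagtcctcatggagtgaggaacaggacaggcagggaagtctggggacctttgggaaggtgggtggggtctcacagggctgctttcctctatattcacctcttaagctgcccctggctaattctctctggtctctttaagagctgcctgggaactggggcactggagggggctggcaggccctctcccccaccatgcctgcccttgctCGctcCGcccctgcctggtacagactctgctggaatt
Sema3d: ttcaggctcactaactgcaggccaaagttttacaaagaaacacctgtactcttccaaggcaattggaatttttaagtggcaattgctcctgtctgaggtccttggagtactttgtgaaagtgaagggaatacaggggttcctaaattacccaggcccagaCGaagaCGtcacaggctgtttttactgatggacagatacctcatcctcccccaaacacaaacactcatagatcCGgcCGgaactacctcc
These windows hold 3, 2 and 4 CG dinucleotides, and the median over 32851 RefSeq windows of this length was 6. The windows at other start sites of Sema4a held 6, 13 and 3, so the one printed is its lowest. Windows were found for 9 of the 10 genes, 15 windows in all, and ranged from 1 CG in Sema4d to 39 in Sema3c. Sema3c and Sema4d, which also passed the threshold of the fit below, are not printed. The 3 printed windows thus do not stand for such genes as a set. The letters GAGGAAG, part of the consensus of the macrophage factor PU.1, occurred on either strand in 4 of the 15 windows (Plxnb3, Plxnc1, Plxnd1 and another start of Sema4a) and in 10.6% of all windows. The AP-1 letters TGACTCA occurred in none of the 15 and in 4.46% of all windows; the motifs do not overlap each other. A match in letters is a description of the window. Neither methylation nor binding was measured in these libraries, and Plxna1 had no entry.

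The libraries held 37349505 to 55771087 estimated counts. Gene-wide Tet2 RNA was 81.2, 82.6 and 78.2 CPM (reads per 1000000, scaled between libraries by TMM) in Tet2 KO replicates 1 to 3 and 57.5, 76.1 and 60.8 CPM in Tet2 WT replicates 1 to 3, a level that cannot show a deletion of single exons and so does not check the labels. Summed over 16 pan-macrophage markers, the libraries held 33109 to 40855 CPM in Tet2 KO and 19297 to 26462 CPM in Tet2 WT. Summed over 16 fibroblast markers, they held 2295 to 4348 CPM in Tet2 KO and 15560 to 28678 CPM in Tet2 WT, so that the mean sum in Tet2 WT was 6.46 times that in Tet2 KO (two-sided p = 0.1 by exact permutation of the genotype labels, which with 3 libraries each can go no lower). In these bulk samples fewer cells of a type and less RNA per cell cannot be told apart. Erythroid and cell cycle markers were also higher in Tet2 KO without overlap, with mean sums 4.15 and 1.81 times those in Tet2 WT. The genotypes separate completely on these marker levels, so genotype and marker content cannot be told apart for any gene below.

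By TPM (transcripts per 1000000), a scale that accounts for transcript length, Sema4a was the most abundant of the 10 genes, with a mean of 140 TPM over the 6 libraries and a range of 89.7 to 190 TPM. It ranked first in every library and lay above 96.4% of the genes that had any TPM in these libraries. Plxnb2 followed at 64.1 TPM (54.0 to 80.8) and ranked second in every library. Sema4d at 25.3 TPM and Plxnd1 at 18.7 TPM overlapped in range. Plxna1 (10.1 TPM), Plxnc1 (9.45 TPM) and Sema3c (7.92 TPM) overlapped with each other in range, while the range of Plxna1 lay below that of Plxnd1. The range of Sema3c, from 0.670 to 16.3 TPM, was the widest relative to its mean among these 3. Plxnb3 (1.91 TPM), Sema3d (1.51 TPM) and Plxnb1 (0.440 TPM) were the lowest, again with overlapping ranges. The order was thus led by an immune semaphorin and by one B-class plexin, while the other B-class plexins were near the bottom.

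In the edgeR quasi-likelihood fit over all genes, 5 of the 10 passed the adjusted threshold of 0.05, with Sema4a, Sema4d and Plxnb3 higher and Sema3c and Sema3d lower in Tet2 KO. Of all 16386 tested genes, 16.2% passed it, 6.11% as higher and 10.1% as lower. Because the 10 genes were chosen with this comparison known, nothing is read from their count. Their median log2 fold change was 0.39, where that of all tested genes was 0.00. The libraries of the genotypes did not overlap in CPM for 7 of the 10 genes and for 34.5% of all tested genes. When libraries were scaled to the pan-macrophage markers instead of by TMM, the median log2 fold change of all genes moved to -0.71 and the calls became 19 higher and 7087 lower, from 1001 higher and 1652 lower. Limma on log2(TPM + 1) also called mostly lower genes, 1741 against 256 higher.

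**Figure D1:**
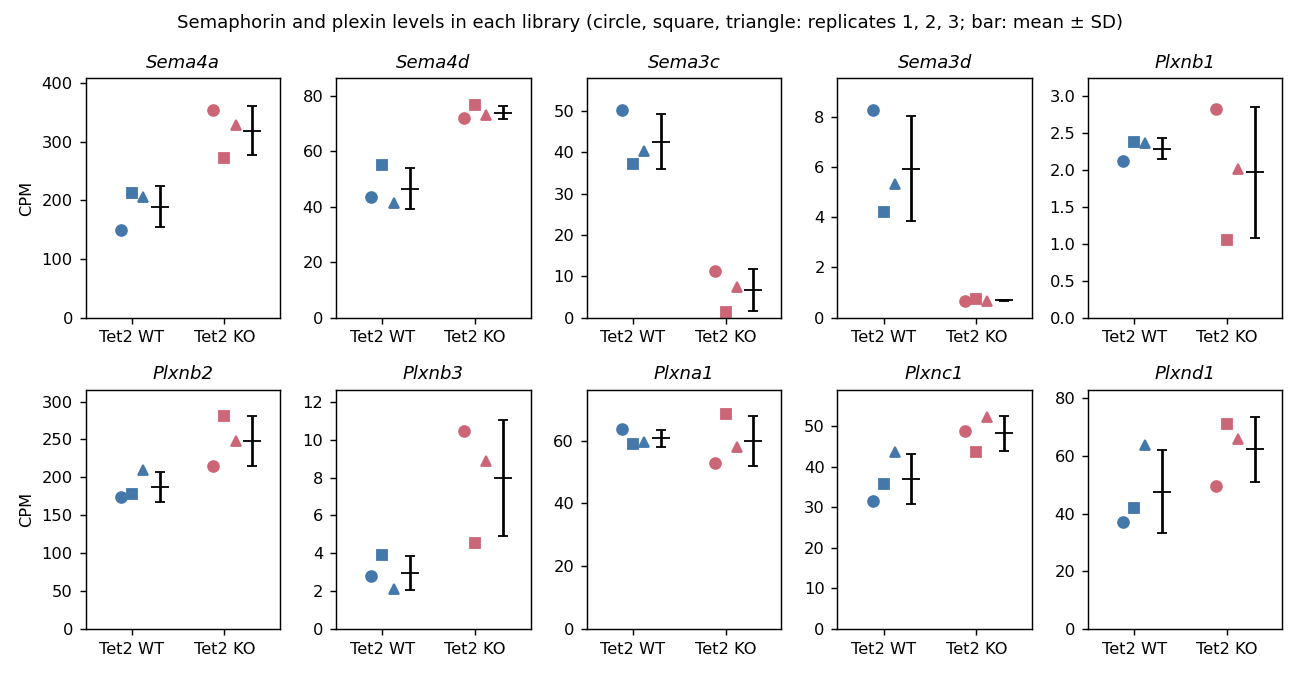
TMM-scaled CPM (y axis, from 0) of the 10 genes in the 3 Tet2 WT (blue) and 3 Tet2 KO (red) libraries, with the mean and SD of each genotype as a black bar. Sema3c and Sema3d lie lower in Tet2 KO without overlap, Sema4a and Sema4d higher without overlap, and Plxnb1, Plxna1 and Plxnd1 overlap.

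Among the ligands, both class 4 semaphorins of the 10 genes were at higher CPM in Tet2 KO with TMM scaling. With pan-macrophage scaling, however, neither was called and Sema4d changed sign. The 16 pan-macrophage markers themselves had a median log2 fold change of 0.74 with TMM scaling, and 13 were called higher. Sema4a, a membrane-bound semaphorin of dendritic cells and macrophages that binds B-class plexins and Plxnd1, measured 354, 273 and 328 CPM in Tet2 KO replicates 1 to 3. In Tet2 WT replicates 1 to 3 it measured 149, 213 and 206 CPM. Every Tet2 KO library lay above every Tet2 WT library, with replicate 1 the highest of the one genotype and the lowest of the other. The log2 fold change was 0.75 ± 0.17 (SE), or 1.68-fold, and was 0.05 with pan-macrophage scaling. Leaving out Tet2 KO replicate 1 or replicate 3 ended the call, at edgeR adjusted p-values of 0.0505 and 0.0586, as did limma on log2(TPM + 1) (0.128) and log2(TPM + 0.1) (0.187). Dendritic cell markers summed to 84.8 to 109 CPM in Tet2 KO and 63.7 to 73.2 CPM in Tet2 WT, without overlap, and their part in the result was not tested.

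Sema4d, also called CD100, is the classic semaphorin of lymphocytes and platelets, signals through Plxnb1 and Cd72 and can be shed from the surface. It measured 72.1, 76.7 and 73.1 CPM in Tet2 KO and 43.4, 55.0 and 41.3 CPM in Tet2 WT. The Tet2 KO libraries lay close to each other, and all stood above the Tet2 WT libraries. Its log2 fold change was 0.67 ± 0.14, and -0.03 with pan-macrophage scaling. The call was lost without Tet2 WT replicate 1 (adjusted p = 0.0541 by edgeR), on length-scaled TPM counts (0.0542) and by limma on log2(TPM + 1) (0.158) and log2(TPM + 0.1) (0.233). T and NK cell markers, the other cells known for Sema4d, summed to 3.08 to 3.99 CPM in Tet2 KO and 3.80 to 4.91 CPM in Tet2 WT, and 6 of 8, Cd3e and Lck among them, were under 0.5 CPM in every library. Platelet markers summed to 1142 to 1253 CPM in Tet2 KO and 761 to 1200 CPM in Tet2 WT, ranges that overlap, and their part in the result was not tested.

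Both secreted class 3 semaphorins of the 10 genes were at lower CPM in Tet2 KO. They stayed lower with pan-macrophage scaling, but that scaling moved the median log2 fold change of all genes to -0.71. Genes that were lower with TMM scaling thus stay lower with it, and nothing is read from this. Sema3c, which signals through neuropilins with Plxnd1 or A-class plexins and is needed for the outflow tract of the developing heart, measured 11.3, 1.32 and 7.37 CPM in Tet2 KO. In Tet2 WT it measured 50.2, 37.3 and 40.4 CPM. Tet2 KO replicate 2 was the lowest library by far, and no library of one genotype reached the range of the other. The log2 fold change was -2.69 ± 0.64, or 6.45-fold lower in Tet2 KO, and ranged from -3.29 without Tet2 KO replicate 1 to -2.19 without Tet2 KO replicate 2. Leaving out Tet2 KO replicate 3 (edgeR adjusted p = 0.0987), Tet2 WT replicate 1 (0.0714) or Tet2 WT replicate 2 (0.0589) ended the call, as did testing without a filter on low counts (0.168).

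Sema3d, a secreted semaphorin with a known role in the patterning of the pulmonary veins, measured 0.663, 0.720 and 0.670 CPM in Tet2 KO. Its values in Tet2 WT were 8.28, 4.21 and 5.32 CPM. The Tet2 KO libraries were nearly equal to each other, while replicate 1 stood above the other Tet2 WT libraries. The log2 fold change was -3.11 ± 0.38, or 8.64-fold lower in Tet2 KO, and ranged from -3.30 to -2.78 over the 6 fits that each left out one library. On scales that use TPM it was smaller, at -1.89 from length-scaled TPM counts, -1.87 by limma on log2(TPM + 0.1) and -1.10 by limma on log2(TPM + 1). Of the 18 alternative fits, the one with the fibroblast marker level as a covariate lost the call.

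The fibroblast marker sums, like both class 3 genes, were lower in Tet2 KO. In Tet2 KO replicates 1 to 3 the sums were 4348, 2295 and 3986 CPM. Sema3c followed the same order of libraries, as did Sema4a and Plxnb3, which were higher in Tet2 KO. Sema3d, nearly equal in the 3, ran in the reverse order. In Tet2 WT replicates 1 to 3 the sums were 28678, 15560 and 24439 CPM. Both class 3 genes followed that order, while Sema4a and Plxnb3 did not. Orders over 3 libraries are a description, and the part of fibroblast RNA was not tested. Of the 16 markers, 15 were called lower in Tet2 KO, with a median log2 fold change of -3.01; Fn1, which macrophages make too, was not called. With the fibroblast level as a covariate Sema3c went to 3.15 ± 1.72 and Sema3d to -1.66, neither called. That fit called 0 of 16386 genes, with 1682 at an unadjusted p under 0.05. Endothelial markers, from another cell type known for class 3 semaphorins, summed to 149 to 220 CPM in Tet2 KO and 171 to 358 CPM in Tet2 WT, which overlap. Schwann and glial markers summed to 41.8 to 58.5 CPM in Tet2 KO and 59.4 to 70.7 CPM in Tet2 WT, with the defining marker Sox10 under 0.5 CPM in every library, and their part in the result was not tested.

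**Figure D2:**
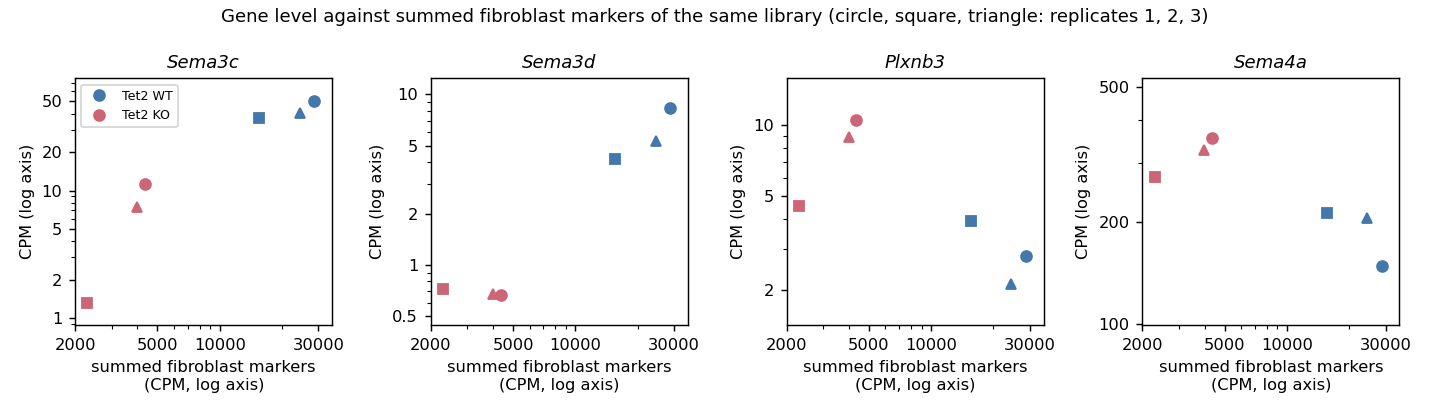
CPM of Sema3c, Sema3d, Plxnb3 and Sema4a (y axis, log) against the summed CPM of 16 fibroblast markers (x axis, log) in the same library, blue for Tet2 WT and red for Tet2 KO. The genotypes fall in separate ranges of the x axis, 2295 to 4348 and 15560 to 28678 CPM. Within Tet2 KO, Sema3c, Plxnb3 and Sema4a are each lowest in the library with the lowest fibroblast sum.

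Among the receptors, the B-class plexins did not move as a group. Plxnb1, the high-affinity receptor of Sema4d, measured 2.82, 1.05 and 2.01 CPM in Tet2 KO and 2.12, 2.37 and 2.36 CPM in Tet2 WT. The Tet2 KO libraries spread on both sides of the Tet2 WT libraries, and the log2 fold change was -0.22 ± 0.42. Plxnb2, which binds Sema4c and other class 4 semaphorins, measured 215, 281 and 249 CPM in Tet2 KO and 175, 178 and 210 CPM in Tet2 WT. These ranges nearly touched without overlapping. Its log2 fold change of 0.40 ± 0.14 missed the threshold (edgeR adjusted p = 0.0864) and was -0.30 with pan-macrophage scaling.

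Plxnb3, a receptor of Sema5a better known from the nervous system, measured 10.5, 4.55 and 8.89 CPM in Tet2 KO. Its Tet2 WT values were 2.79, 3.92 and 2.14 CPM. Replicate 2 was the lowest of the Tet2 KO libraries and the highest of the Tet2 WT libraries, so the groups were separated by a narrow gap. The log2 fold change was 1.43 ± 0.37, or 2.70-fold, and ranged from 1.19 to 1.72 over the 6 fits with one library left out. Leaving out replicate 1 or 3 of Tet2 KO (edgeR adjusted p = 0.0948 and 0.0932) or of Tet2 WT (0.0984 and 0.0933) ended the call, as did pan-macrophage scaling, where the log2 fold change was 0.71. A replicate block (0.0723) and limma on log2(TPM + 1) (0.0827) and log2(TPM + 0.1) (0.102) ended it too. The part of Schwann and glial RNA, whose marker sums are given above, was not tested.

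The annotated transcripts to which kallisto assigned the Plxnb3 reads were almost all of the retained-intron type. Plxnb3 lies on chromosome X at 73757090 to 73772514, plus strand, in GRCm38. The retained-intron transcript ENSMUST00000146812.7 received 233, 178 and 290 estimated counts in Tet2 KO and 102, 131 and 103 in Tet2 WT. A shorter one, ENSMUST00000155096.1, received 96.6, 55.7 and 118 in Tet2 KO and 36.9, 53.3 and 13.3 in Tet2 WT. The single coding transcript, ENSMUST00000002079.6, received 13.7, 0 and 51.2 estimated counts in Tet2 KO and 7.03, 28.3 and 0 in Tet2 WT, which is 0 to 13.0% of the gene in a library. For the other 9 genes coding transcripts held at least 81.0% of the counts in every library, except in Sema3d.

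The longer retained-intron transcript keeps 2 introns that the coding transcript splices out, and it lacks coding exons of 1061 and 126 bases at 73758523 to 73759583 and 73763152 to 73763277. The shorter one, of 2296 bases, keeps the next pair of introns downstream. The 4 introns are printed on the plus strand of GRCm38, with the GT and AG at their ends in capitals, because reads assigned to these transcripts make up most of the Plxnb3 signal. From 5′ to 3′ they lie at chrX:73767181-73767290, chrX:73767453-73767520, chrX:73767673-73767780 and chrX:73767882-73767957.
Intron kept by the longer transcript, upstream: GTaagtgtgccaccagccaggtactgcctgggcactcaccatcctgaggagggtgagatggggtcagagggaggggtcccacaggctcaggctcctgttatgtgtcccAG
Intron kept by the longer transcript, downstream: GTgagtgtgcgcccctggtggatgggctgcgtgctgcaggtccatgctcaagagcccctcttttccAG
Intron kept by the shorter transcript, upstream: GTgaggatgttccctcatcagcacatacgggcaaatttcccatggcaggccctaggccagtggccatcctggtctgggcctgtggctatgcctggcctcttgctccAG
Intron kept by the shorter transcript, downstream: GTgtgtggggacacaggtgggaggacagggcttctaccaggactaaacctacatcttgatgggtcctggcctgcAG
The 4 introns measure 110, 68, 108 and 76 bases, and each starts with GT and ends with AG. The deposited values do not show coverage along the gene, so the counts rest on how kallisto divided reads among overlapping transcripts. Coverage of the introns was not analysed here, and whether the RNA gives rise to plexin B3 protein was not measured.

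None of the other 3 plexins among the 10 genes was called. Plxna1, a partner of neuropilins for class 3 semaphorins and a receptor of Sema6d, measured 53.0, 68.5 and 58.0 CPM in Tet2 KO and 63.8, 58.9 and 59.5 CPM in Tet2 WT. The Tet2 KO libraries spread around the Tet2 WT libraries, and the log2 fold change was -0.02 ± 0.13. With pan-macrophage scaling it was -0.73 (edgeR adjusted p = 0.0214), close to the median of all genes under that scaling.

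Plxnc1, the receptor of Sema7a, measured 48.7, 43.6 and 52.2 CPM in Tet2 KO and 31.4, 35.8 and 43.5 CPM in Tet2 WT. Tet2 KO replicate 2 and Tet2 WT replicate 3 were nearly equal, so that the groups only just did not overlap. It had a log2 fold change of 0.38 ± 0.15, not called (adjusted p = 0.129 by edgeR), and of -0.33 with pan-macrophage scaling. Plxnd1, the receptor of Sema3e and a partner for Sema3c that is abundant in endothelium, measured 49.7, 71.1 and 65.9 CPM in Tet2 KO and 36.9, 42.0 and 63.9 CPM in Tet2 WT. Tet2 WT replicate 3 lay within the Tet2 KO range. That library also held the highest sum of endothelial markers, 358 CPM, against 149 to 220 CPM in the other 5. The log2 fold change of Plxnd1 was 0.39 ± 0.22 (edgeR adjusted p = 0.288) and -0.30 with pan-macrophage scaling, and the part of endothelial RNA in it was not tested.

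The share of each gene's TPM in its most abundant transcript was compared as a further measure. For 3 of the 10 genes the libraries of the genotypes did not overlap, as for 13.6% of the 13578 tested genes with at least 2 annotated transcripts. The main coding transcript of Sema3c held 49.0% ± 16.1 of the gene's TPM in Tet2 KO and 81.1% ± 5.88 in Tet2 WT (SD, n = 3 each), a difference of -32.1 points. For Sema4d the main coding transcript held 71.6% ± 4.84 in Tet2 KO and 59.2% ± 3.77 in Tet2 WT. For Sema3d a noncoding transcript of 708 bases held 74.8% ± 10.4 in Tet2 KO and 48.3% ± 9.66 in Tet2 WT. Each of these 3 had an exact permutation p of 0.1, the smallest possible, and an adjusted p of 0.333 over the 10 genes, so none passed.

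The transcript values show what lies behind these shares. The full-length coding transcript of Sema3d, ENSMUST00000030868.10, received 13.5, 5.47 and 23.0 estimated counts in Tet2 KO and 408, 204 and 272 in Tet2 WT. The noncoding ENSMUST00000196093.1 received 4.58, 9.89 and 12.1 in Tet2 KO and 25.7, 27.2 and 17.4 in Tet2 WT, so the Tet2 KO shares rest on very few reads. The main Sema3c transcript, ENSMUST00000030568.13, received 328, 49.7 and 350 estimated counts in Tet2 KO and 2436, 1983 and 2091 in Tet2 WT. For Sema4a the main transcript, ENSMUST00000166237.7, whose 5′ end is the start site of the window printed above, stood at 91.9, 82.9 and 85.7 TPM in Tet2 KO replicates 1 to 3 and at 41.6, 65.3 and 61.7 TPM in those of Tet2 WT. It held 53.0% ± 6.71 and 48.9% ± 3.58 of the gene's TPM, shares that overlapped, while its level did not overlap between the genotypes.

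**Figure D3:**
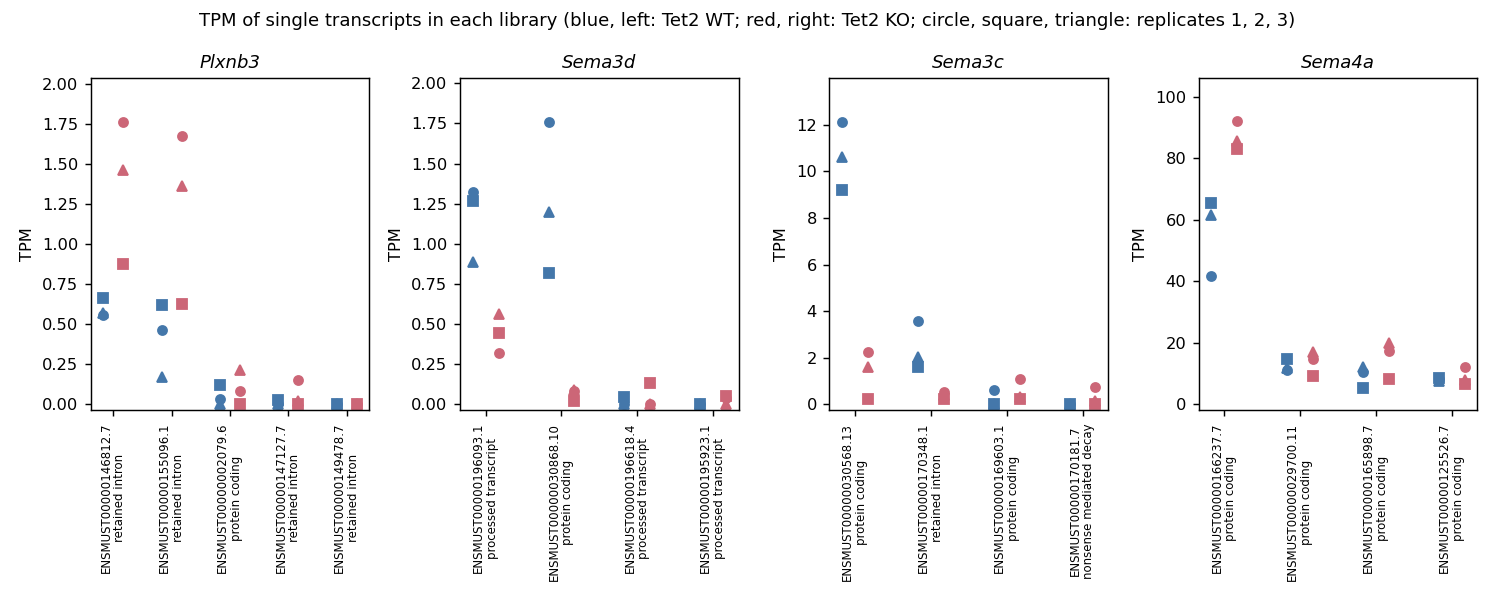
TPM (y axis) of the most abundant annotated transcripts of Plxnb3, Sema3d, Sema3c and Sema4a in each library, blue for Tet2 WT and red for Tet2 KO, with transcript type under each identifier. The Plxnb3 signal lies in 2 retained-intron transcripts, and the full-length Sema3d transcript is at 0.82 to 1.76 TPM in the blue libraries and 0.02 to 0.09 TPM in the red ones.

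In the rest of the families 19 of 21 genes were tested, and 5 were called lower and 0 higher in Tet2 KO by edgeR. The 5 calls are 26.3% of the 19 genes, beside 16.2% called over all tested genes (6.11% higher and 10.1% lower). This difference in share was not tested. At an unadjusted p under 0.05 there were 6 lower and 2 higher, and DESeq2 called 6 lower and 1 higher, Plxna4. Their median log2 fold change was -0.54. Plxna2, a class 3 receptor with neuropilins, measured 7.14, 7.49 and 7.09 CPM in Tet2 KO and 23.9, 21.4 and 22.4 CPM in Tet2 WT (log2 fold change -1.64 ± 0.16, edgeR adjusted p = 0.000232). The libraries of each genotype were close together and far from those of the other. The other 4 genes that fell were the class 3 semaphorin Sema3b (-2.24 ± 0.36), the Plxnb2 ligand Sema4c (-1.17 ± 0.22), the Plxnb3 ligand Sema5a (-1.81 ± 0.34) and the A-class plexin ligand Sema6a (-1.31 ± 0.30). Sema5a stood at 4.03, 3.07 and 2.49 CPM in Tet2 KO and 14.4, 6.70 and 12.5 CPM in Tet2 WT, so it was lower in the libraries where its receptor Plxnb3 was higher. Sema6a lost its call without Tet2 WT replicate 1 (edgeR adjusted p = 0.0811) and on length-scaled TPM counts (0.0509). Limma on log2(TPM + 0.1) did not call it either (adjusted p = 0.0609). With the fibroblast covariate edgeR called 0 of the 19 genes, with 2 at an unadjusted p under 0.05, and Sema3b and Sema5a changed sign to 0.40 and 0.27.

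The neuropilins and Sema6d were the most abundant of these genes, with Sema4c. Nrp1, the co-receptor that lets A-class plexins and Plxnd1 answer class 3 semaphorins, averaged 135 TPM over the Tet2 KO libraries and 122 TPM over the Tet2 WT libraries. Its log2 fold change by CPM of 0.31 ± 0.14 missed the threshold (adjusted p = 0.168 by edgeR). Nrp2 averaged 15.2 and 14.8 TPM (log2 fold change 0.08 ± 0.20), and Sema6d, a ligand of Plxna1, averaged 10.3 and 13.7 TPM (-0.27 ± 0.18). None of these 3 was called.

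Over both sets, the semaphorin classes can be set side by side. Of 6 tested class 3 genes, 3 were lower and 0 higher in Tet2 KO by edgeR, DESeq2 and limma voom, and the count was the same at an unadjusted p under 0.05. Of 5 tested class 4 genes, 2 were higher (Sema4a and Sema4d) and 1 lower (Sema4c), although with pan-macrophage scaling neither of the first 2 was called. Of 9 plexins, Plxnb3 was higher and Plxna2 lower, and 7 were not called. Among all 31 genes, 29 were tested, with 3 higher, 7 lower and 19 not called, beside 6.11% higher and 10.1% lower over all tested genes; these counts include the 10 chosen genes. The difference between the classes was not tested.

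**Figure D4:**
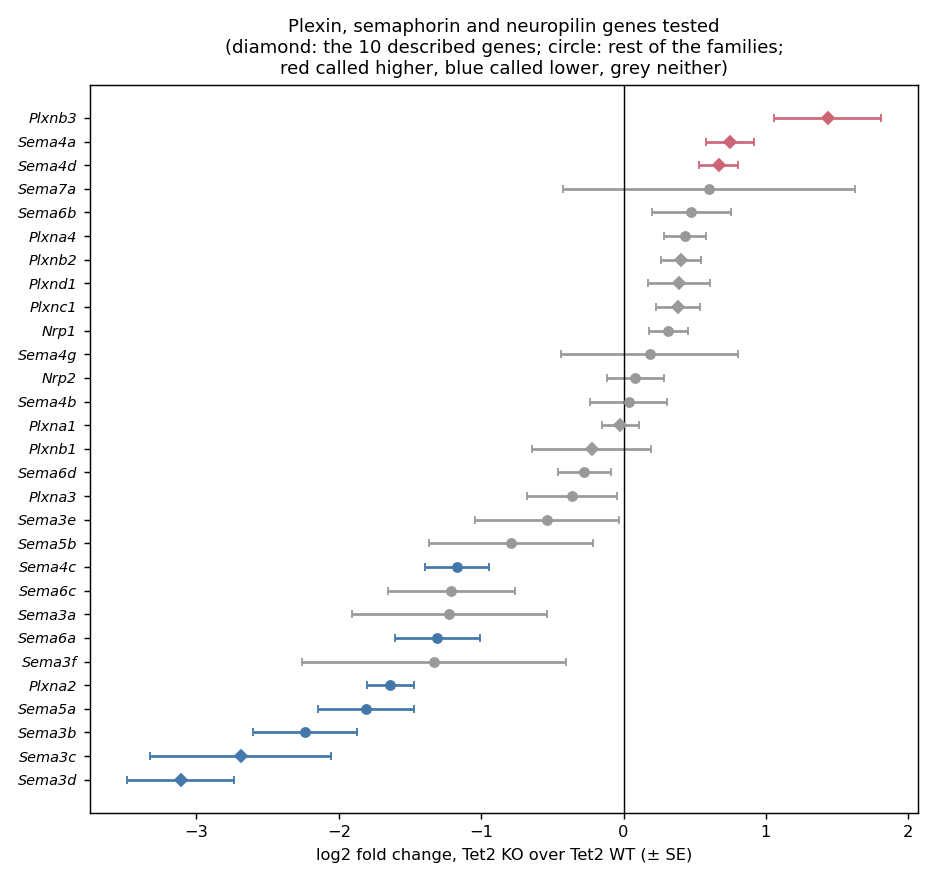
Log2 fold change of Tet2 KO over Tet2 WT (x axis, bars are SE) for the 29 tested plexin, semaphorin and neuropilin genes, with diamonds for the 10 described genes and circles for the rest. Plxnb3, Sema4a and Sema4d are the 3 genes called higher (red), and Sema3d and Sema3c have the lowest fold changes of the 7 called lower (blue).

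The signalling list of 53 genes also holds receptors of semaphorins other than plexins and proteases that cut semaphorins. Of its genes, 50 were tested, with 9 higher, 9 lower and 32 not called. Called genes made up 36% of the 50, beside 16.2% over all tested genes (6.11% higher and 10.1% lower). This difference in share was not tested. The median log2 fold change of the list was 0.02. Receptors and co-receptors divided. Cd72, the B-lineage and macrophage receptor of Sema4d, measured 312, 207 and 231 CPM in Tet2 KO and 104, 122 and 120 CPM in Tet2 WT (log2 fold change 1.11 ± 0.17, edgeR adjusted p = 0.00190). All Tet2 KO libraries stood above all Tet2 WT libraries. With pan-macrophage scaling Cd72 was at 0.39 and no longer called (edgeR adjusted p = 0.0725). B cell markers summed to 27.4 to 35.1 CPM in Tet2 KO and 12.05 to 18.3 CPM in Tet2 WT, and the defining markers Ms4a1 and Pax5 were under 0.5 CPM in every library; their part in the result was not tested. Havcr2, which codes for the immune receptor Tim-3, was higher by 0.73 ± 0.12 on the log2 scale, but by 0.01 with pan-macrophage scaling. Limma on log2(TPM + 0.1) did not call Havcr2 (adjusted p = 0.0547). Of 3 receptor tyrosine kinases that B-class plexins associate with, Mst1r and Erbb2 were lower, with log2 fold changes of -2.79 ± 0.50 and -2.48 ± 0.34, and Met was not called (0.23 ± 0.80). With the fibroblast covariate Mst1r and Erbb2 were at 2.41 and 0.30, neither called.

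Among 17 small GTPases and their regulators, edgeR called 3 lower and 0 higher, with 7 lower and 0 higher at an unadjusted p under 0.05, and DESeq2 called 5 lower and 0 higher. The 3 edgeR calls are 17.6% of the list, near the 16.2% over all tested genes. Farp1, an exchange factor that binds A-class plexins, measured 0.720, 1.36 and 1.78 CPM in Tet2 KO and 14.6, 10.7 and 11.2 CPM in Tet2 WT (log2 fold change -3.22 ± 0.35, edgeR adjusted p = 0.000314). Its groups stood far apart. Arhgap35, also known as p190 RhoGAP and a partner of plexins in switching off RhoA, was lower (log2 fold change -1.36 ± 0.26). The exchange factors that bind the C-terminus of B-class plexins were not called: the log2 fold changes were -0.12 ± 0.18 for Arhgef11 and -0.50 ± 0.15 for Arhgef12 (edgeR adjusted p = 0.0522). Arhgef12 lay at the threshold: 10 of 18 alternatives called it lower, among them DESeq2 (adjusted p = 0.0244), length-scaled TPM counts (0.0141) and the stricter filter on low counts (0.0343).

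Among kinases and adaptors, 3 of 8 were higher and 1 lower, so 50% were called, beside 16.2% over all tested genes. Sh3bp1, a GTPase-activating protein that binds plexins, was higher by 0.69 ± 0.15 on the log2 scale, Fes, a kinase known to act below Plxna1, by 0.65 ± 0.15, and Ptk2b, the kinase Pyk2, by 0.62 ± 0.15, but all 3 had log2 fold changes between -0.06 and -0.01 with pan-macrophage scaling. Fes and Ptk2b each lost their call without Tet2 KO replicate 3 (edgeR adjusted p = 0.0637 and 0.0677). They also lost it without Tet2 WT replicate 1 (0.0687 and 0.0832) and without Tet2 WT replicate 3 (0.0690 and 0.0524). Sh3bp1 lost its call without Tet2 WT replicate 1 (edgeR adjusted p = 0.0541). Limma on log2(TPM + 1) and on log2(TPM + 0.1) called none of these 3 genes. Of the 4 proteases that cut semaphorins, Mmp14, which sheds Sema4d in other cell types, was lower, at 47.0, 35.0 and 42.6 CPM in Tet2 KO and 242, 123 and 181 CPM in Tet2 WT (log2 fold change -2.13 ± 0.24, edgeR adjusted p = 0.000407). Within each genotype its libraries ranked in the order of their fibroblast sums, but an order over 3 libraries tests nothing. The part of fibroblast RNA in Mmp14 was not tested. Of 10 tested cytoskeletal effectors, 2 were higher and 2 lower, together 40% of those tested.

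**Figure D5:**
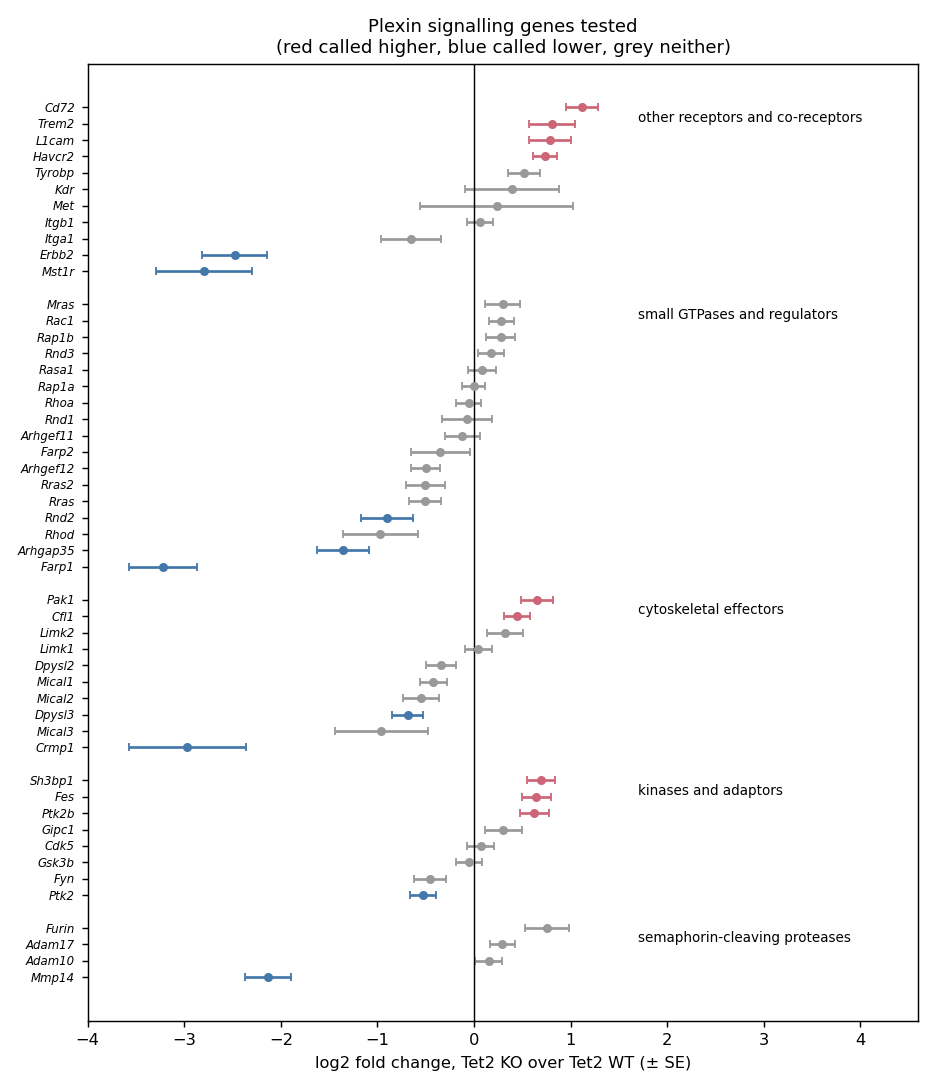
Log2 fold change of Tet2 KO over Tet2 WT (x axis, bars are SE) for the 50 tested genes of the signalling list, grouped by role. Red marks the 9 genes called higher, led by Cd72 at 1.11, and blue the 9 called lower, led by Farp1 at -3.22.

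The genes whose levels varied most like Plxnb3 within the genotypes were sought by Pearson's r of log2 CPM centred within genotype, over 6 libraries and 10707 genes. The closest were Casd1 (r = 0.9997), Gpr34 (r = 0.999), Agfg1 (r = 0.996), 9930012K11Rik (r = 0.995) and Zfp472 (r = 0.995), none of which was called between the genotypes. For Sema3d they were Ptpdc1 (r = 0.9995), Clec3b (r = 0.999), Apopt1 (r = 0.997), Scoc (r = 0.996) and Psat1 (r = 0.992). Of these, Clec3b, the tetranectin gene, had a log2 fold change of -3.17 ± 0.22, close to that of Sema3d. The others were not close to it, at -0.72 for Ptpdc1, -0.50 for Scoc, -0.11 for Apopt1 and 0.02 for Psat1. Among those others only Scoc was called (edgeR adjusted p = 0.0429). With so few libraries, 122 genes exceeded r = 0.95 with Plxnb3 and 49 with Sema3d, and all points share the depth and composition of their library.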

How the data were processed

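The 6 libraries hold RNA of sorted mouse cardiac macrophages. The submitters' processing notes name Trim Galore 0.6.4, kallisto 0.44.0, which divides shared reads among transcripts by a model, and the build GRCm38; no annotation release is named there. Per the file headers, the authors deposited an estimated count (not normalized) and a TPM value for each transcript. Of 118783 transcripts, 116622 (98.2%) matched GENCODE M21 by identifier, and the unmatched held at most 0.671% of a library's counts.

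Estimated counts were summed per gene, rounded, filtered by edgeR's expression filter and tested with edgeR 4.0.16 (R 4.3.3), robust quasi-likelihood with TMM scaling and genotype as the only term, with Benjamini-Hochberg adjustment over 16386 genes and a threshold of 0.05. CPM values are TMM-scaled. Single values were compared by exact permutation tests over 20 label assignments. The test was tried on counts simulated for Tet2 KO against Tet2 WT (16016 genes): it recovered 12% of the genes changed by 1.5-fold, 34% of those changed by 2-fold, 70% of those changed by 4-fold and 82% of those changed by 8-fold, and false calls made up 10.8%. Every pair of libraries of a genotype differed by more than sampling noise (chi-square per gene 69.2 or more).

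The 10 genes and all gene lists were chosen with earlier results of these data known. Named besides the 10 were the called genes and the 4 with the highest mean TPM of the rest of the families, up to 5 signalling genes called in each direction by smallest p, Arhgef11 and Arhgef12, and the 5 genes most like Plxnb3 and Sema3d among protein-coding genes whose log2 CPM averaged 2 or more. Alternatives were other scalings and filters, DESeq2 1.42.0, limma 3.58.1 (voom, and log2(TPM + 1) and log2(TPM + 0.1)), a replicate block, a fibroblast covariate, length-scaled counts and leaving out each library.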

Additional observations from a re-analysis of the deposited data

How the results depend on the processing

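The counts that moved by over 1.5 times and the called results that changed direction were these. The number of genes called over all genes was 7106 with pan-macrophage scaling, 1741 by limma on log2(TPM + 0.1), 0 by edgeR with the fibroblast covariate (1682 at an unadjusted p under 0.05) and 1382 to 3141 with one library left out, being 1382 without Tet2 WT replicate 1 and 1750 without Tet2 KO replicate 3. Calls among the rest of the families, 5 in the fit reported, were 9, 4, 0 and 4 to 6 in the same order, and among the signalling genes, 18 in the fit reported, 33, 10, 0 and 7 to 20, being 7 without Tet2 WT replicate 1 and 11 without Tet2 KO replicate 1, Tet2 KO replicate 3 or Tet2 WT replicate 3. The covariate separates the genotypes completely, so that fit has little left to test.

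With pan-macrophage scaling the log2 fold change changed sign for Sema4d (-0.028), Sh3bp1 (-0.0104), Fes (-0.0392) and Ptk2b (-0.0586), and with the fibroblast covariate for Sema4d (-0.11), Sema3c (3.15), Sema3b (0.40), Sema5a (0.27), Fes (-0.37), Ptk2b (-0.64), Mmp14 (0.26), Erbb2 (0.30) and Mst1r (2.41). None of these was called in the fit where its sign changed. All were smaller in size than their SE, except Sema3c, Ptk2b and Mst1r with the fibroblast covariate. The cause of the sign changes was not tested. Sema3d kept its call in 17 of 18 alternatives, Sema3c in 13, Sema4a and Sema4d in 12 each and Plxnb3 in 9.

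With one library left out, the genotype difference in main transcript share ranged from -20.6 to 18.2 points for Plxnb1, -4.24 to 6.30 for Plxnb2, -13.7 to 1.69 for Plxnb3, -2.05 to 9.17 for Plxna1 and -3.08 to 4.96 for Plxnc1; taken from estimated counts it was -4.26 points for Plxnb2. The ratio of summed cardiomyocyte markers, Tet2 KO over Tet2 WT, ranged from 0.859 to 1.08.

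Same-numbered libraries did not deviate together (r = 0.06, 0.13 and 0.04), so the numbers were not taken as pairs. With a replicate block 2347 genes were called, 5 of the rest of the families and 16 signalling genes, and Plxnb3 lost its call (adjusted p = 0.0723). Low counts limit Sema3d, Plxnb1 and the Plxnb3 transcripts.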
